A study of Mus musculus with 28 samples.

Results

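The genes described here are 4 that handle calcium inside neurons, namely the calcium-binding and calmodulin-binding proteins Vsnl1 and Pcp4 and the sodium-calcium-potassium exchangers Slc24a2 and Slc24a4, out of 13617 genes measured in retinal amacrine cells of the mouse. They were taken by their symbols, and each had 1 row with that symbol alone in the deposited array table. They were chosen by measured values: earlier results of these same arrays had named them, from the age trend in one cell type and the age difference in the other. Their changes with age and between cell types are therefore given as descriptions, without p-values, and only the comparison with an adult array carries a test for them.

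Expression was measured on 28 arrays, each hybridised with RNA of 200 fluorescent cells sorted from 1 retina. Arc amacrine cells came from Tg(Arc-EGFP)194Gsat/Mmcd mice, in which the promoter of Arc drives EGFP. These mice were the F2 of a backcross of FVB/N-Swiss Webster hybrids to C57BL/6J, and the hybrids are known to carry a recessive mutation that causes photoreceptors to degenerate. There were 22 Arc arrays, 1 for each postnatal day from P1 to P20 with a second at P6, and 1 at P43. Starburst amacrine cells, which release acetylcholine as well as GABA, came from a Chat-driven Cre line (129S6-Chat_tm1(cre)Lowl/J) crossed to Rosa26-LSL-RFP, which marks any cell that has expressed the Cre. They were measured with 3 arrays at P3 and 3 at P18. The label for genetic background names the same mixed background for both lines, whereas the growth protocol places lines other than the Arc line in C57BL/6J. The batch label reads A and B on every Arc array but B on every starburst array, so batch, fluorophore, mouse line and cell type cannot be told apart. Values are log2 expression, and a gene's level is set only against its own level in other arrays, not against that of another gene.

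Neurons keep resting calcium low and let it rise briefly when channels in the surface membrane or in internal stores open. Calmodulin and the EF-hand neuronal calcium sensors bind this calcium and change their partners. Pcp4 is a small protein with an IQ motif that binds calmodulin and alters how quickly calmodulin takes up and releases calcium. Vsnl1, visinin-like protein 1, is a neuronal calcium sensor that moves to membranes when calcium binds. The Slc24a proteins use the gradients of sodium and potassium to carry calcium out of the cell, beside the Slc8a sodium-calcium exchangers and the Atp2b calcium pumps. In the retina Slc24a2 is best known from cone photoreceptors and Slc24a1 from rods, and Slc24a4 is best known from olfactory neurons and tooth enamel.

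The sequences just upstream of the annotated genes are shown because the 4 genes fell into different patterns across cell types and days. They are from RefSeq on build GRCm38.p6, printed 5′ to 3′ on the strand of the gene, and all 4 genes matched the table. The capitals mark the single motif match found. The windows are chr16:96467356-96467605 on the plus strand for Pcp4, chr12:11436579-11436828 on the minus strand for Vsnl1, chr4:87230653-87230790 on the minus strand for Slc24a2, and chr12:102128477-102128726 on the plus strand for Slc24a4. The Slc24a2 window has 138 bases and the others 250, since the listed start of Slc24a2 lies inside the annotated gene and only bases outside the gene are shown.
Pcp4: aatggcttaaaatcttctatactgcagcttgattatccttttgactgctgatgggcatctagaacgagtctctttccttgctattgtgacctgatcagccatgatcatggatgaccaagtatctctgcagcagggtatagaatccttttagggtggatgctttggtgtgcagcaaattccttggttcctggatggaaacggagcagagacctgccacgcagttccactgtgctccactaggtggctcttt
Vsnl1: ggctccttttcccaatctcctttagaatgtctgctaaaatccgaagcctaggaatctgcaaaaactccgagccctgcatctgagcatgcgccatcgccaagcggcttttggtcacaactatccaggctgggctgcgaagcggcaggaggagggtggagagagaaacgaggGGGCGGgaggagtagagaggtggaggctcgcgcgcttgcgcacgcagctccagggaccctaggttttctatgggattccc
Slc24a2: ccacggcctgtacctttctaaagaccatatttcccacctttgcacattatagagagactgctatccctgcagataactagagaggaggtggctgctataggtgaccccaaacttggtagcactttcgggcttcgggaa
Slc24a4: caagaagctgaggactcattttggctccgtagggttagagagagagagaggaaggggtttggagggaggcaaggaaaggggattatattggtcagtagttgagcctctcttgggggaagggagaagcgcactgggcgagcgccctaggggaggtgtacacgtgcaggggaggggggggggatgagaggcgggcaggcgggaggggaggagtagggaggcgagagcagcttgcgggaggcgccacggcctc

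A total of 5 short motifs was searched on both strands: AP-2 (GCCNNNGGC), an E-box (CAGCTG), the GC box (GGGCGG), the TATA box (TATAAA) and the core of the cyclic AMP response element (TGACG). The single match was the GC box of Vsnl1, which begins at position -80 from the edge of the gene. Among all 32851 windows of 250 bases in the table, 32.7% hold a GC box, 13.7% the AP-2 motif, 13.001% the E-box, 12.4% the TATA box and 17.8% the TGACG core. In windows cut to 138 bases the shares are 15.1%, 6.68%, 6.95%, 6.83% and 7.62% in that order. The GC content of the windows was 46.8% for Pcp4, 58.0% for Vsnl1, 49.3% for Slc24a2 and 62.8% for Slc24a4, against a median of 52.4% over all windows of 250 bases. The genes themselves lie at 16:96467606-96525793 (Pcp4), 12:11325257-11436578 (Vsnl1), 4:86983124-87230652 (Slc24a2) and 12:102128727-102267133 (Slc24a4) on the same build, while the submitters' processing notes name mm8 for the arrays.

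The identity of the sorted cells was set against marker genes. Of 6 measured starburst markers, which include Chat and the choline transporter Slc5a7, all lay below background in the Arc arrays of P17 to P19 and all above it in starburst cells at P18. At P3 5 of the 6 were above background in starburst cells, with Slc5a7 below it. Background was read from 708 olfactory receptor genes, as the level that 95% of their values did not exceed, which was 3.64 in Arc and 4.13 in starburst arrays. Of 7 pan-amacrine markers, Gad2 alone was at or below background in every starburst array of each age. By limma 4 of the 7 (Pax6, Tfap2a, Tfap2b and Gad2) were lower in starburst than in Arc cells at both ages. The shares of all genes called lower were 11% at P18 and 5.66% at P3. Gad1 was called higher in starburst cells at P3, where 5.13% of all genes were. Array medians lay between 3.39 and 3.55 in Arc and between 3.58 and 3.67 in starburst cells. Starburst replicates correlated across genes with r between 0.950 and 0.966, and the P6 pair of Arc arrays with r of 0.974. In sorted cells of a marked line, fewer cells with a transcript and less transcript per cell cannot be told apart. The labels leave unstated whether each Arc column is a single sample or an average.

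Pcp4 read higher at later ages in both cell types, and starburst cells carried more of it than Arc cells at P18. In Arc cells its level ran from 3.81 to 7.23 with a median of 6.00 over the 7 arrays of P1 to P6. It ran from 5.86 to 7.78 with a median of 7.20 over P7 to P13, and from 7.05 to 9.43 with a median of 8.50 over P14 to P20. The early and late ranges overlapped, because P15, at 7.05, was below the second P6 array, at 7.23. A straight line over the 21 arrays of P1 to P20 gave a log2 change of 4.31 ± 0.41 (SE), which is 19.8-fold, against a median of -0.13 over all genes. Across all genes limma called 37.7% in this trend, 14.7% as higher and 23% as lower. The lowest days were P1, at 4.31, and P2, at 3.81. Without them the fitted change was 3.62, still scaled to the span of P1 to P20.

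The course of Pcp4 in Arc cells was uneven from day to day. Its largest step between successive days was 2.35, from P2 to P3, where the median absolute step of all genes was 0.18. The next largest step was 1.46, from P16 to P17, when the level went from 7.97 to 9.43. Of 19 steps 12 went up, and the largest fall was -1.02, from P14 to P15. The spread of a single day can be read only at P6, where the pair of arrays gave 6.00 and 7.23. That difference of 1.23 is larger than the difference of 99.54% of all genes in the same pair, whose median was 0.17, so steps of Pcp4 below about this size were not larger than the spread between arrays of the same day.

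In starburst cells Pcp4 stood at 5.70, 7.14 and 7.09 at P3 and at 10.98, 10.94 and 11.15 at P18. Every P18 array was above every P3 array. The difference was 4.38 ± 0.34 (SE, n = 3 and 3), or 20.8-fold. The value of 11.15 is the highest of the whole table, and saturation of the probes was not tested. Among all genes limma called 8.65% in this comparison, 4.76% as higher and 3.89% as lower, and 11.3% had all P18 arrays above all P3 arrays. After quantile normalization the difference of Pcp4 was 3.38.

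**Figure D1:**
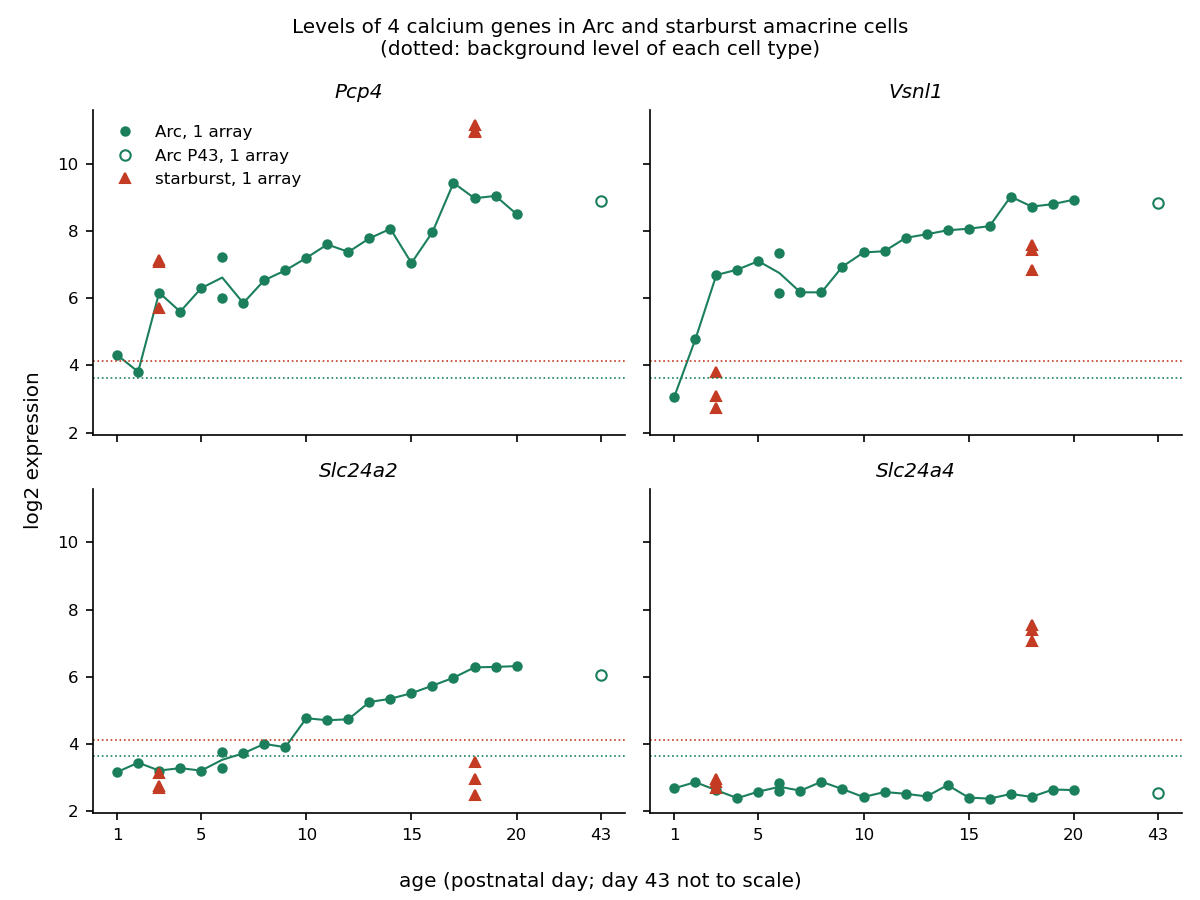
Log2 expression of the 4 genes against postnatal day, with 1 circle per Arc array (line through the daily means, open circle for P43) and 1 triangle per starburst array. Dotted lines mark the background of each cell type, 3.64 in Arc and 4.13 in starburst. Slc24a4 stays under the line in all 22 Arc arrays and reaches 7.07 to 7.53 in starburst cells at P18, while Slc24a2 does the reverse.

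Vsnl1 followed a similar course with age and the opposite order between the cell types. Over P1 to P6 its level in Arc cells ran from 3.07 to 7.33 with a median of 6.69. It ran from 6.18 to 7.90 with a median of 7.36 over P7 to P13 and from 8.02 to 9.02 with a median of 8.73 over P14 to P20. All 7 late arrays were above all 7 early ones, which held for 5.67% of all genes. The fitted change from P1 to P20 was 4.03 ± 0.48 (SE), or 16.3-fold. Much of it lay in the first days, with steps of 1.70 from P1 to P2 and 1.92 from P2 to P3. P1, at 3.07, was the single Arc array in which Vsnl1 lay below background. Scaled to the span of P1 to P20, the fitted change was 3.35 without P1 and 2.97 without both P1 and P2. From P7 to P20 the level went up from 6.18 to 8.93. Over P1 to P20 as a whole, 15 of 19 daily steps went up.

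In starburst cells Vsnl1 was 3.81, 2.74 and 3.09 at P3, all below background, and 7.43, 7.58 and 6.84 at P18. Every P18 array was above every P3 array, as for Pcp4. Because the P3 level is not above background, the difference is a lower bound, at least 3.15 on the log2 scale or at least 8.90-fold. The measured means were 3.22 ± 0.54 and 7.28 ± 0.39 (SD, n = 3 each), a difference of 4.07 ± 0.29 (SE). Thus Vsnl1 was not above background in starburst cells at an age when the Arc arrays of P2 to P4 already read 4.77, 6.69 and 6.85.

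The Arc arrays that departed from the straight line in Pcp4 often did so in Vsnl1 too. The second P6 array lay 1.17 above its line in Pcp4 and 1.03 above in Vsnl1, and P3 lay 0.79 and 1.02 above. P1 deviated by -0.61 and -2.17, and P2 by -1.34 and -0.68. P15 was an exception, with -1.05 in Pcp4 and -0.14 in Vsnl1. Across the 21 arrays, as a description, r between Pcp4 and Vsnl1 was 0.924 (Spearman rho 0.935), and 0.658 after the line in day was removed from both. The arrays share the cell preparation and the normalization, and P1, P2 and the second P6 array weigh most in that value. Pcp4 and Slc24a2 had r of 0.871, which became -0.22 without the line in day. The pair at P6 also differed by 1.17 in Vsnl1, more than 99.38% of genes did. In Slc24a2 it differed by 0.46, more than 87.69% of genes, and in Slc24a4 by 0.25, more than 64.74%. Slc24a2 read 3.31 and 3.77 in this pair, on either side of background, and Slc24a4 was below background in both arrays.

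**Figure D2:**
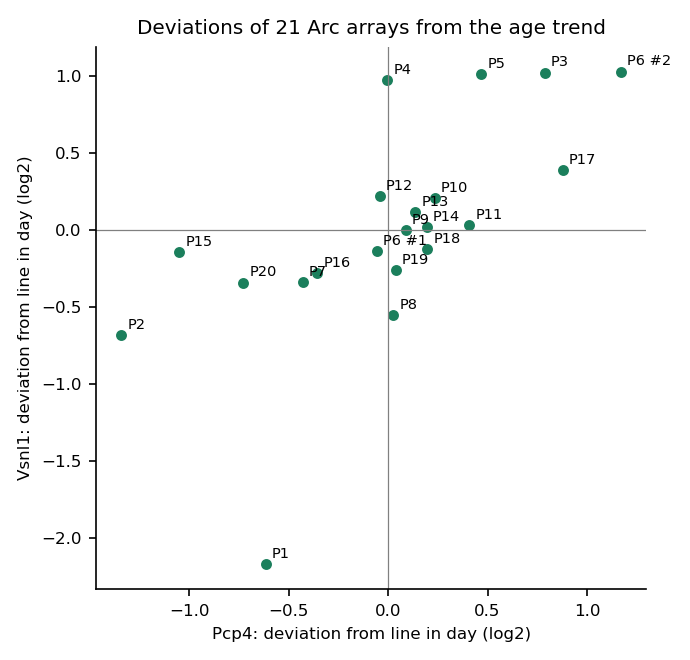
Deviations of Vsnl1 (vertical, log2) and Pcp4 (horizontal, log2) from their straight lines in postnatal day, 1 point for each of the 21 Arc arrays of P1 to P20. The second P6 array (1.17 and 1.03) and P3 (0.79 and 1.02) lie at the upper right, and P1 and P2 at the lower left.

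Slc24a2 was above background in Arc cells alone, on every day from P7 and in the second array of P6, and its level was higher on later days. Over P1 to P6 its level ran from 3.17 to 3.77 with a median of 3.29, and 1 of the 7 arrays was above background. It ran from 3.73 to 5.25 with a median of 4.71 over P7 to P13, where all 7 arrays were above background, and from 5.35 to 6.32 with a median of 5.98 over P14 to P20. All late arrays were above all early ones, as for 5.67% of all genes. The 3 arrays of P17 to P19 read 5.98, 6.29 and 6.30, against 3.45, 3.21 and 3.29 at P2 to P4, a difference of at least 2.55 on the log2 scale or at least 5.84-fold. These later arrays were above the earlier ones, as for 13.9% of all genes. A line from P1 to P20 gave 3.67 ± 0.17 (SE), with the early days at background. The largest step was 0.86, from P9, at 3.91, to P10, at 4.77, and 98.5% of genes had a smaller one between those days. Of 19 steps 15 went up and the largest fall was -0.23. Its residual spread around the line, 0.24, was below that of Pcp4, 0.63, and of Vsnl1, 0.73. These spreads were not taken at like levels, since Slc24a2 was above background in 15 of the 21 arrays, Pcp4 in 21 and Vsnl1 in 20.

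In starburst cells Slc24a2 was not above background in any array, with 2.75, 2.71 and 3.13 at P3 and 3.47, 2.48 and 2.98 at P18. The groups overlapped, and the difference was 0.11 ± 0.25 (SE, 95% interval from -0.45 to 0.67). Slc24a2 is a cone gene elsewhere in the retina, so cone markers were read beside it. All 8 cone markers were at or below background in each group of arrays. Their summed log2 level was 5.45 to 5.54 in Arc P2 to P4 and 5.45 to 5.51 in Arc P17 to P19. Slc24a2 differed by at least 2.55 between these windows, and the part of cone RNA in its level was not tested.

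Slc24a4 showed the opposite distribution. Its level in the 22 Arc arrays lay between 2.38 and 2.88, below background in each. In starburst cells it was 2.69, 2.87 and 2.95 at P3, also below background, and 7.07, 7.41 and 7.53 at P18. The P18 arrays thus all stood above the P3 arrays, and the difference was at least 3.21 on the log2 scale or at least 9.23-fold, with measured means of 2.84 ± 0.13 and 7.34 ± 0.24 (SD, n = 3 each). No Arc day came near this level, and the fitted line in Arc cells gave -0.19 ± 0.11 (SE). With no starburst array between P3 and P18, the day on which Slc24a4 appeared was not measured.

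Both sorted populations were then set against each other at matched ages, with neighbouring Arc days standing in for replicates. At P18 starburst cells were compared with Arc cells of P17 to P19. None of the 4 genes overlapped between the groups. Pcp4 averaged 11.03 ± 0.11 in starburst and 9.15 ± 0.25 in Arc cells (SD, n = 3 each), 3.67-fold higher in starburst cells. Slc24a4 was higher in starburst cells by at least 3.70 on the log2 scale. Vsnl1 averaged 7.28 ± 0.39 in starburst and 8.85 ± 0.15 in Arc cells, a log2 difference of -1.57 ± 0.44 (SE) or 2.96-fold in favour of Arc cells. Slc24a2 was at least 4.16-fold higher in Arc cells. Over all genes 20.7% were called in this comparison, 9.69% as higher in starburst cells and 11% as lower. A share of 26.6% had all starburst arrays above all Arc arrays, 17.8% had the reverse, and the median difference over all genes was 0.10.

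At P3 only Vsnl1 and Pcp4 were above background in either cell type. Vsnl1 was at least 3.93-fold higher in the Arc arrays of P2 to P4 than in starburst cells, and the groups did not overlap, as for 11.2% of all genes in that direction and 16.9% in the other. Limma called 10.8% of genes, 5.13% as higher in starburst cells and 5.66% as lower. Pcp4 averaged 6.64 ± 0.82 in starburst and 5.19 ± 1.23 in Arc cells (SD, n = 3 each), and the groups overlapped. Its difference of 1.45 ± 0.49 (SE) rested on the P2 array, since it was 0.76 without P2 and 0.48 against P3 alone. Slc24a2 and Slc24a4 were below background in both groups at this age, so no fold is given.

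The change between these ages was also compared between the cell types. For Pcp4 the change in starburst cells exceeded that in Arc cells by 0.42 ± 0.69 (SE), with a 95% interval from -1.08 to 1.92, and the sign turned with quantile normalization, to -0.36, to -0.05 without the first starburst array of P3 and to -0.06 without Arc P3. For Vsnl1 the excess was 1.32 ± 0.63 (95% interval from -0.03 to 2.68), with the starburst change measured from a level below background. For Slc24a4 the measured values gave 4.59 ± 0.23 and for Slc24a2 -2.76 ± 0.31. Neither is a bound, since 3 of the 4 group means of each gene lay below background. Of all genes 4.02% were called in this interaction, 1.67% as higher and 2.36% as lower. Pcp4 and Vsnl1 were thus higher at the later age in both populations, and each exchanger in 1 of them.

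**Figure D3:**
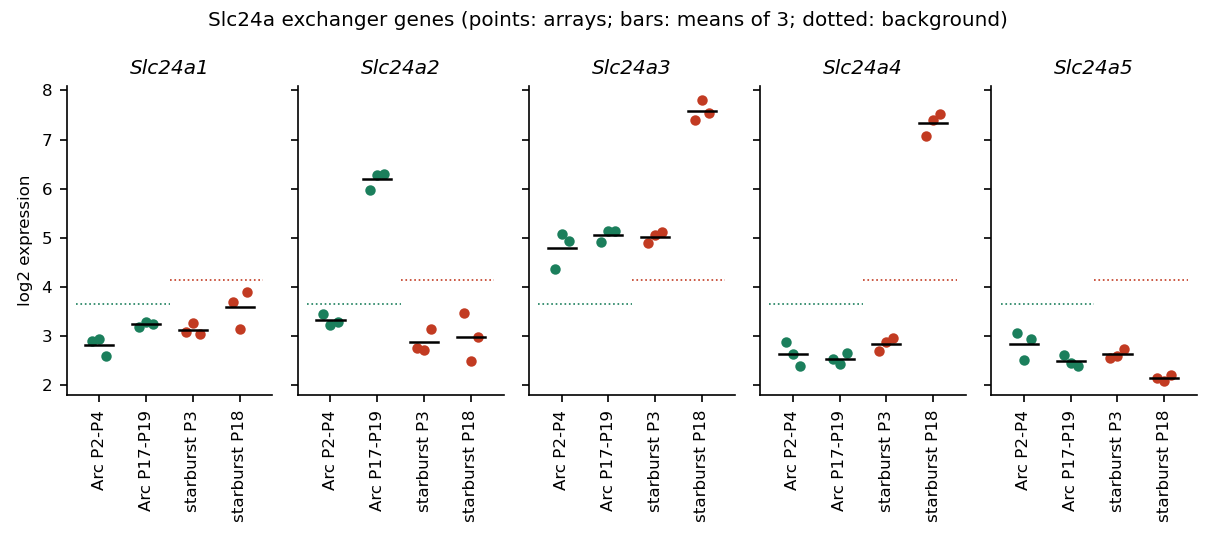
Log2 expression of the 5 Slc24a exchanger genes in Arc cells of P2 to P4 and P17 to P19 and in starburst cells of P3 and P18, with 1 point per array, bars at the means of 3 arrays and dotted lines at background. Slc24a2 is above background in Arc cells at P17 to P19 and Slc24a4 in starburst cells at P18, and Slc24a3 reaches 7.58 in starburst cells at P18.

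The adult Arc array gave a test on an array that had no part in choosing the genes, although the arrays of P17 to P20 beside it had. At P43 Pcp4 read 8.89, Vsnl1 8.85, Slc24a2 6.06 and Slc24a4 2.55. The means of P17 to P20 were 8.99 ± 0.38 for Pcp4, 8.87 ± 0.13 for Vsnl1 and 6.22 ± 0.16 for Slc24a2 (SD, n = 4). No difference passed limma's test with Benjamini-Hochberg adjustment. Pcp4 differed by -0.10 (95% interval from -0.73 to 0.54, adjusted p = 0.931 in limma). Vsnl1 differed by -0.02 (95% interval from -0.30 to 0.25, adjusted p = 0.961 in limma). Slc24a2 differed by -0.17 (95% interval from -0.57 to 0.24, adjusted p = 0.774 in limma), and Slc24a4, below background throughout, had an adjusted p of 0.993. The share of genes called was 0% of 13617, with 1406 at an unadjusted p under 0.05 and again 0 called when limma's prior had no trend. The lone P43 array was assumed to vary like the others. The intervals were not adjusted over the 13617 genes, so a difference within them, or beyond them, could have gone uncalled.

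The exchangers belong to a larger set of calcium extrusion genes. Of 13 other measured genes of that list, 8 were higher and 3 lower in the Arc age trend by limma with adjusted p under 0.05. The share of all genes called was 37.7%, with 14.7% higher and 23% lower. The median change of the list was 0.42 against -0.13 over all genes. The higher genes include Slc24a1 and the lower ones Slc24a5, whose means were below background in every group. Atp2b4, a plasma membrane calcium pump, rose by 3.20 ± 0.26 (SE) in Arc cells and was not above background in starburst cells, so that Arc cells held at least 8.84-fold more at P18. Atp2b2, the pump also used by hair cells, rose in both populations, by 1.88 ± 0.11 in Arc and 2.32 ± 0.17 in starburst cells. Atp2a2, the pump that fills the endoplasmic reticulum, rose by 1.36 ± 0.11 and 1.54 ± 0.13 (SE). In starburst cells 3 of the 13 were higher and 1 lower, with a median of 0.15 against -0.06 over all genes, of which 8.65% were called. The lower gene was Slc24a5, which was below background at both ages and lost its call in 9 of 12 alternatives.

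Slc24a3, an exchanger known from brain and smooth muscle, was the other family member above background. It averaged 5.02 ± 0.12 at P3 and 7.58 ± 0.21 at P18 in starburst cells (SD, n = 3 each), a rise of 2.56 ± 0.16 (SE) with a limma adjusted p of 2.7e-05. In Arc cells it averaged 4.79 ± 0.38 over P2 to P4 and 5.06 ± 0.13 over P17 to P19. Its Arc trend of 0.50 had an adjusted p of 0.0229, and the call was lost in 7 alternatives, among them those without P1, P2 or P20, with an adjusted p of up to 0.313. The rise in starburst cells exceeded that in Arc cells by 2.30 ± 0.26 (SE, limma adjusted p = 1.6e-04). At P18 Slc24a3 was 2.53 ± 0.18 (SE) higher in starburst than in Arc cells, the direction that Slc24a4 also had. Slc24a1, known from rods, and Slc24a5, known from pigment cells, had means below background in every group.

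Vsnl1 was read beside 18 other measured neuronal calcium sensors. Of these, 4 were higher and 1 lower in the Arc trend (median 0.14), where 37.7% of all genes were called. Hpcal4, a close relative of Vsnl1, rose by 1.91 ± 0.17 (SE), Caln1 by 1.44 ± 0.16 and Ncald by 1.31 ± 0.17, and Ncs1 changed by -0.73 ± 0.16, a call lost in P1 to P16 alone (limma adjusted p = 0.0571). In starburst cells limma called 0 of the 18, with 2 at an unadjusted p under 0.05 and 1 called in a fit over 12 arrays, against 8.65% of all genes called. Hpcal4 was not above background there at either age, and its measured change was lower than in Arc cells by 1.57 ± 0.25 (limma adjusted p = 0.00214), which is no bound. Between the cell types at P18, 3 of the 18 were higher in starburst cells and 6 lower, against 9.69% and 11% of all genes. Necab1, a neuronal EF-hand protein, was among the latter, at least 2.05 lower on the log2 scale, and Ncs1 was 1.42 ± 0.19 (SE) higher in starburst cells.

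Pcp4 was read beside 16 other genes of the calmodulin pathway. In the Arc trend 6 were higher and 4 lower (median 0.20), and in starburst cells 5 were higher and 1 lower (median 0.24). Over all genes 37.7% and 8.65% were called in these comparisons. Camkv, a kinase-like protein that binds calmodulin, rose in both, by 3.36 ± 0.22 in Arc and 3.37 ± 0.14 in starburst cells (SE). Camk2a, the alpha subunit of a calmodulin-dependent kinase of synapses, rose by at least 1.80 in starburst cells and had means below background in Arc cells. Camk4, a kinase found mostly in nuclei, rose by 2.17 ± 0.22 in starburst cells and had 0.42 ± 0.20 in the Arc trend (limma adjusted p = 0.0892). Ppp3ca, a catalytic subunit of calcineurin, fell by 1.73 ± 0.20 in Arc cells. Pcp4l1, the closest relative of Pcp4, was 2.99 ± 0.23 higher in starburst than in Arc cells at P18 and 1.94 ± 0.23 higher at P3, and its Arc trend of -0.41 did not pass the test (adjusted p = 0.168). Gap43, a growth cone protein that also binds calmodulin, was at P18 lower in starburst cells by a log2 difference of -2.03 ± 0.25.

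**Figure D4:**
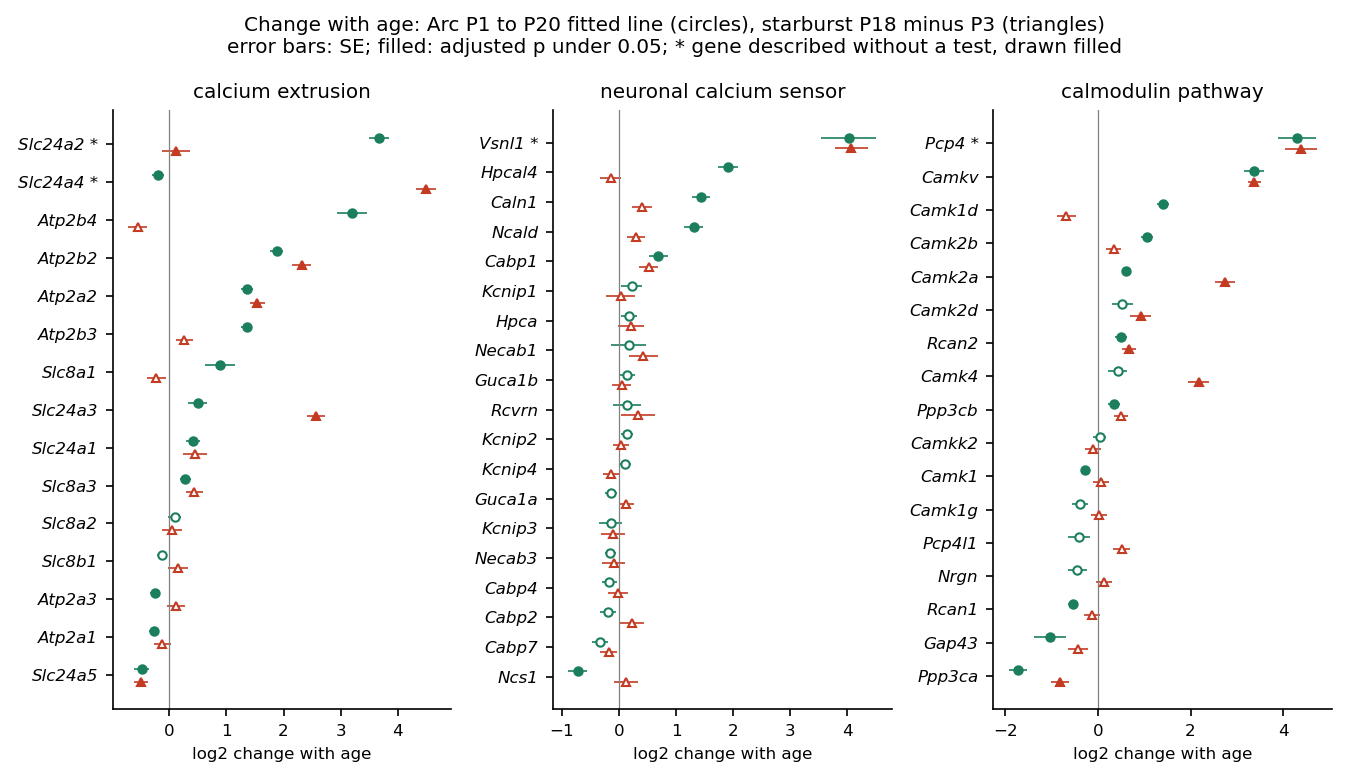
Log2 change with age of the calcium extrusion, neuronal calcium sensor and calmodulin pathway genes, as the fitted line from P1 to P20 in Arc cells (circles) and P18 minus P3 in starburst cells (triangles), with SE as error bars. Filled symbols mark genes with an adjusted p under 0.05, and starred genes are the 4 described here, drawn filled and not tested. Pcp4 and Vsnl1 lie at 4.03 to 4.38 in both cell types, whereas Slc24a2 and Slc24a4 each lie near 0 in 1 of them.

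Markers of other retinal cells moved with age in the same arrays, some up and some down. Over all genes limma called 14.7% higher and 23% lower in the Arc trend, and 4.76% and 3.89% for starburst age. In the Arc trend 0 of 7 ganglion markers were higher and 3 lower. For 5 horizontal markers these counts were 0 and 4, for 5 microglia markers 0 and 3, and for 8 cone markers 0 and 1. The summed log2 level of 8 rod markers was 6.02 to 6.18 in Arc arrays of P2 to P4 and 7.84 to 8.09 in those of P17 to P19, and 6.32 to 6.43 and 7.31 to 7.70 in starburst cells at P3 and P18. In the Arc trend 7 of the 8 were higher, and in starburst cells 2 of the 8 were higher. Nrl and Slc24a1 were at or below background in every array, and Pde6b in every Arc array of P2 to P4 and P17 to P19. Of 6 Muller glia markers 3 were higher in the Arc trend (Glul, Clu and Dkk3) and 1 lower (Vim, -1.20). Aqp4 was at or below background in every array, and Rlbp1 in those of Arc P2 to P4 and P17 to P19. The sum of the glia markers went from 6.23 to 6.55 up to 8.18 to 8.41 in Arc cells, and was 5.90 to 6.32 and 5.93 to 6.42 in starburst cells. Of 6 bipolar markers 1 was higher in the Arc trend (Prkca, 3.56) and 2 lower (Grm6, -0.32, and Pcp2, -0.34). Trpm1, Pcp2 and Gng13 were at or below background in every array. The calls of Grm6 and Pcp2 were lost in 13 and 7 of 29 alternatives. The sum of the 6 went from 6.20 to 6.63 up to 8.24 to 8.34 in Arc cells. All but Prkca were at or below background in each Arc array of P17 to P19, where Prkca averaged 8.11. Prkca also rose in starburst cells, by 2.83 ± 0.17 (SE). The part of RNA from other retinal cells in the later levels of Pcp4, Vsnl1 and Slc24a2 was not tested.

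The genes most like each of the 4 across all 28 arrays were found by Pearson's r of log2 values, as a description over arrays that share age and cell type. Those nearest Pcp4 were Slc4a10, a sodium bicarbonate transporter (0.961), Vstm2a (0.955) and the stress kinase Mapk10 (0.940). Slc4a10 averaged 3.55, 6.27, 4.96 and 7.61 in Arc P2 to P4, Arc P17 to P19, starburst P3 and starburst P18, higher at the later age in both cells and higher in starburst than in Arc cells at each age. Those nearest Vsnl1 were the protein kinases Prkce (0.973) and Prkca (0.961) and the chloride transporter Slc12a5 (0.956). Prkce averaged 6.20, 8.24, 3.80 and 7.10 in the same order, high early in Arc cells and low in starburst cells at P3.

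The neighbours of the exchangers were high in the same cell type, which follows from choosing them by r over these arrays. Slc24a2 was most like Cobl, an actin nucleator (0.976), Dtna (0.969) and Nebl (0.969). Cobl averaged 3.81 and 6.32 in Arc cells at P2 to P4 and P17 to P19, and 3.34 and 3.27 in starburst cells, below background there. Slc24a4 was most like the motor protein Myo5b (0.996), Clstn2 (0.994) and the G protein regulator Rgs6 (0.992). Myo5b averaged 2.39, 2.33 and 2.65 in both Arc windows and in starburst P3, all below background, and 6.77 in starburst P18. For Slc24a4 these values of r rest on 3 high arrays against all the others.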

How the data were processed

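Per the labels, 200 cells per sample were sorted by fluorescence, with gates against debris and doublets. The authors deposited log2 values made with R 2.11.1 and RMA, per the submitters' processing notes, which also name mm8. The log base is taken from RMA's convention, and array grouping and batch correction are not given in the sources used here. Of 15170 rows, 13720 had 1 gene symbol, 869 had several and 581 had none. The row with the highest mean was kept for 102 genes with several rows, which left 13617 genes. A further row annotated to both Igsf5 and Pcp4 was not used.

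Tests used limma 3.58.1 in R 4.3.3 (lmFit, eBayes with trend, two-sided) with Benjamini-Hochberg adjustment over 13617 genes at 0.05, and were tested on simulated data. The Arc trend was a line over 21 arrays, its change given over the span of P1 to P20 also where days were left out. Starburst ages were compared over 6 arrays, and cell types and their interaction over 12. A bound sets the dim group of each array at its own value or at background, whichever is higher. The named genes were the 4 members, the genes of the calcium and marker lists, and the 3 nearest genes by r for each member. Members and lists were chosen with earlier results of these data known. The alternatives were scaling, a filter on dim genes, the prior, the row per gene, left-out arrays, windows and the replicate block. Starburst samples are labelled biological replicates, and 1 array per Arc day leaves neighbouring days as the spread. The number of arrays limits precision. Same-numbered starburst arrays did not deviate together.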

Additional observations from a re-analysis of the deposited data

Results flagged for a closer look

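Among the 4 Arc arrays of P17 to P20, Slc24a2 at P17 (5.98) stood apart from 6.29, 6.30 and 6.32 at P18 to P20, by 0.892 of the range of the group, above Dixon's critical value. Chance gives about 1 such result in 20 groups, and Slc24a2 was also lower on earlier days.

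Changes with age differed between the cell types for several genes. Given as starburst P18 minus P3 less Arc P17 to P19 minus P2 to P4 on the log2 scale, the difference was -2.76 for Slc24a2 and 4.59 for Slc24a4, both described without a test because they were chosen from these arrays. These are differences of measured values, and for both genes 3 of the 4 group means were below background. By limma's interaction with adjusted p under 0.05, Slc24a3 differed by 2.30, Camk2a by 2.24, Camk4 by 1.68 and Calb1 by 1.54, each with the larger change in starburst cells. Camk2a and Calb1 were below background in Arc cells and in starburst cells at P3, so their values are no bounds, and their rises in starburst cells alone were at least 1.80 and at least 1.04. The change was larger in Arc cells for Atp2b4 (-2.87), Atp2b3 (-0.95) and Hpcal4 (-1.57), with Atp2b4 and Hpcal4 below background in starburst cells. Camk1d (-1.74) rose by 1.40 in the Arc trend. Its change of -0.68 in starburst cells had the other sign but was not called (limma adjusted p = 0.0941). The calcium channel subunit Cacna1h (-1.68) moved in opposite directions, by -1.22 in starburst cells and 0.47 between the Arc windows. Atp2b2 (0.85) had an adjusted p of 0.0272, which rose to as much as 0.0823 in the 8 alternatives that lost the call. Ncald (-0.83) had 0.0342, which rose to as much as 0.103 in 9 alternatives.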

How the results depend on the processing

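The age trend in Arc cells called 5137 genes (2005 higher, 3132 lower), against 3901 (2423 and 1478) with arrays centred on their medians, 3844 (1840 and 2004) with quantile normalization, 3206 (1739 and 1467) above background only and 1966 (1150 and 816) in P1 to P16 alone. Calls between cell types moved with centring from 698 higher and 771 lower to 409 and 1052 at P3, and from 1320 and 1500 to 556 and 2206 at P18. Centring moved the median of all genes by over 0.1, from -0.13 to -0.02 in the trend, from 0.07 to -0.05 at P3 and from 0.10 to -0.08 at P18. Arc P3 alone gave 529 calls and Arc P18 alone 758. Leaving out 1 array gave 4168 to 5605 calls in the trend, 810 to 908 for starburst age, 931 to 1328 at P3, 1586 to 2552 at P18 and 391 to 588 in the interaction. The count at P3 fell by more than 1.5 times without Arc P4 (931), and that at P18 without starburst replicate 1 (1852), Arc P18 (1813) or Arc P19 (1586). The comparison with P43 called 0 genes under each alternative.

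Pcp4 was 3.38 for starburst age and -0.36 in the interaction with quantile normalization, and Slc24a4 was 4.77 for starburst age. Without 1 array the interaction of Pcp4 ran from -0.06 to 1.11, and its P3 difference from 0.76 to 1.94. As means of P14 to P20 against P1 to P6, a narrower gap in age, the trend was 2.80 for Pcp4, 2.53 for Vsnl1 and 2.58 for Slc24a2. Without P1 and P2, chosen after the data were seen, the trend was 3.62, 2.97 and 3.98, still scaled to the span of P1 to P20. The P3 difference of Pcp4 was 0.48 against Arc P3 alone. Leaving out 1 array kept the trend between 3.94 and 4.55 for Pcp4, 3.35 and 4.27 for Vsnl1, and 3.61 and 3.80 for Slc24a2. The replicate block gave 1060 calls for starburst age against 1178. It left the members' changes as they were, and the correlations of same-numbered arrays were 0.05, 0.02 and -0.04, so the numbers did not pair the arrays. Levels below background limit Slc24a2, Slc24a4 and early starburst Vsnl1 to bounds. Causes of these shifts were not tested.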

Other observations

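Genes of calcium entry and release supply the calcium that the sensors read. Of 23 measured genes 10 were higher and 2 lower in the Arc trend by limma, and 4 were higher and 1 lower in starburst cells at P18 against P3, against 37.7% and 8.65% of all genes called. Ryr2, a calcium release channel of the endoplasmic reticulum, averaged 7.24 ± 0.33 in Arc P2 to P4 and 8.18 ± 0.13 in Arc P17 to P19, and 3.36 ± 0.09 and 4.32 ± 0.17 in starburst P3 and P18 (SD, n = 3 each). The difference at P18 was -3.86 ± 0.17 (SE, limma adjusted p = 3.6e-09), starburst minus Arc. Cacnb2, an auxiliary subunit of calcium channels, was lower in starburst cells at P18 by a log2 difference of -2.72 ± 0.23. Cacna1a, the pore of P/Q-type channels, was higher there, by 1.39 ± 0.13, and rose with age in both cell types, by 1.34 ± 0.11 in Arc and 0.77 ± 0.15 in starburst cells. The latter call was lost without the third starburst array of P3 (limma adjusted p = 0.0506). Cacna1h, a T-type channel, rose by 0.70 ± 0.14 in the Arc trend and changed by -1.22 ± 0.18 in starburst cells.

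Among 8 other measured calcium buffers, 4 were higher and 2 lower in the Arc trend, and 1 was higher in starburst cells, against 37.7% and 8.65% of all genes called. Each of the 6 calls in the Arc trend was lost in at least 1 alternative, that of S100a1 in 12 and that of S100a10 in 23 of 29. The gene higher in starburst cells was Calb1, calbindin, which averaged 3.63 ± 0.32 at P3, below background, and 5.17 ± 0.15 at P18 (SD, n = 3 each). In Arc cells Calb1 was below background at every age.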
